A study of Homo sapiens with 6 samples.

Results

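The PARP family comprises the ADP-ribosyltransferases that share a catalytic domain with the tankyrases, and 10 of its genes other than the tankyrases were followed here: PARP1, PARP2, PARP3, PARP4, PARP6, PARP8, PARP9, PARP10, PARP12 and PARP14. They were chosen by gene name, as every probe set to which the platform annotation gives 1 of these symbols and no other, which took 20 of 54675 probe sets and 10 of 19775 genes. RNA came from COLO-320DM, an established line of human colon cancer cells, sorted by CD44, a hyaluronan receptor that marks stem-like tumour cells. The 6 arrays were 3 of CD44-positive cells and 3 of CD44-negative cells, each group with the replicate numbers 1, 2 and 3. Both groups were untreated cells of the same line, grown in dishes, and the submitters state that tankyrase inhibitors act selectively on the CD44-positive ones. One cell line was used. Nothing in the labels says that the replicates were separate cultures, so p-values measure only how far these samples spread, and that spread may be technical.

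PARP enzymes use NAD+ to attach ADP-ribose to proteins, some as single units and some as long chains. The tankyrases mark the scaffold protein AXIN in this way for ubiquitination and removal, which ties them to Wnt signalling in the colon, and drugs that fill the NAD+ pocket of one family member can reach others because the pocket is shared. PARP1, PARP2 and PARP3 respond to DNA breaks. PARP9 and PARP14 carry macrodomains, folds that bind ADP-ribose, and with PARP10 and PARP12 they are known as genes that interferon induces.

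Values are log2 of the RMA intensity, and each difference subtracts the CD44-negative mean from the CD44-positive one. The level of one probe set was not set against that of another, since probes differ in brightness. Each gene was read on its probe set with the highest mean. Genes averaging below 5.12 on it (the 30th percentile of these means over all genes) were set aside as dim, which left 13842 genes. All 10 PARP genes and 18 of their 20 probe sets lay above that limit over the 6 arrays, PARP14 only through its CD44-positive arrays, since its CD44-negative mean was just under it. The sort marker CD44 stood at 7.86, 8.12 and 7.11 in CD44-positive arrays, against 5.41, 5.29 and 4.99 in CD44-negative arrays. Of 9 epithelial markers 6 were above the dim limit, among them KRT8, KRT18 and CDX2, and EPCAM, CDH1 and KRT19 were not. Of 8 neuroendocrine markers on the array 3 were above it, SYP, ENO2 and NCAM1, and 5 were dim, CHGA, CHGB, INSM1, SCG2 and SCG3.

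PARP9, PARP14 and PARP12 had the largest differences in the family, and all were higher in the CD44-positive cells, by 0.45, 0.77 and 0.38. The remaining 7 genes differed by between -0.10 and 0.18. None of the 10 passed limma's test over all genes at an adjusted p of 0.05, where 0% of the 13842 genes were called. None passed with the replicate number as a block either, where 0.0578% (8 genes) were called. The sort marker CD44, with a difference of 2.47, had an adjusted p of 0.106 by limma without the block and 0.00176 with it. The unblocked fit thus did not call the gene used for sorting. At an unadjusted p under 0.05, PARP9 and PARP12 stood out as higher without the block, 2 of 10 genes against 1.24% of all genes called higher and 1.97% called in either direction. With the block 4 of 10 did, PARP8, PARP9, PARP12 and PARP14, all higher, against 4.24% of all genes called higher and 7.49% called in either direction. These same 4 genes were higher in 3 of 3 pairs, as were 13.7% of all genes, and PARP6 and PARP10 were lower in 3 of 3, as were 14.8%. Of the 18 tested PARP probe sets, none was called, beside 0.00318% of all probe sets without the block and 0.0764% with it. In 2 of the 18 the arrays did not overlap and were higher, beside 2.9% of all probe sets, and in 1 they were lower, beside 2.77%. The median difference of the 10 genes was 0.028, beside -0.0025 over all tested genes. PARP14 counts among these 4 although it passed the filter only through its CD44-positive arrays. The median of the family lay close to that of all genes.

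**Figure D1:**
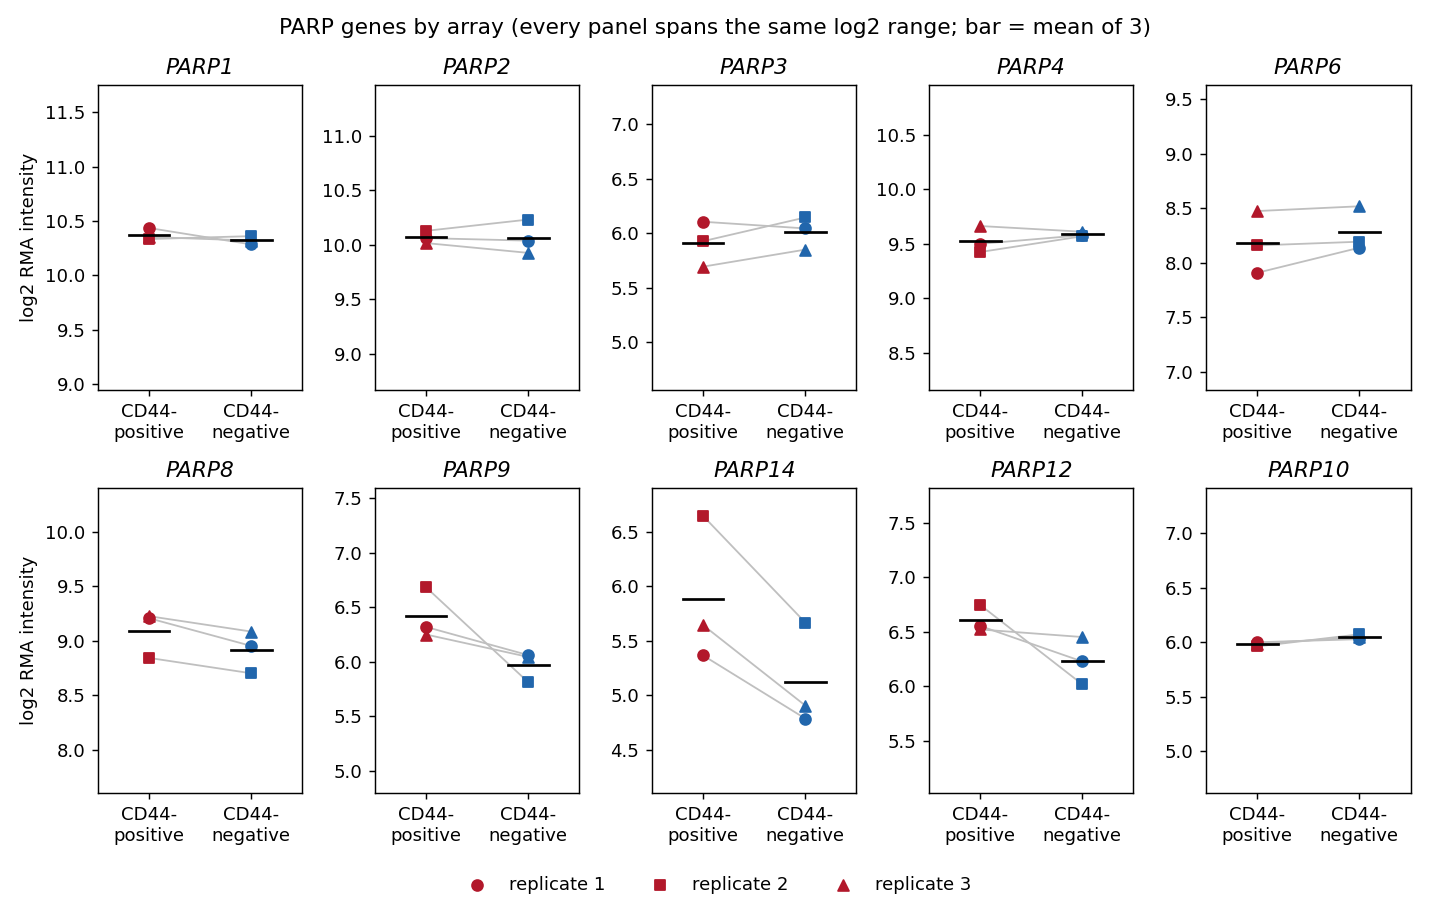
Log2 RMA intensity of the 10 PARP genes in each array, CD44-positive (red) left of CD44-negative (blue), with grey lines joining arrays of the same replicate number (circle 1, square 2, triangle 3) and bars for the mean of 3 arrays. All panels span an equal log2 range; PARP14 and PARP9 show the widest separation, and all 3 lines of PARP14 slope the same way.

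The DNA-break enzymes gave nearly level values. PARP1, the main maker of poly(ADP-ribose) at broken DNA, stood at 10.44, 10.33 and 10.35 in CD44-positive arrays, against 10.29, 10.36 and 10.32 in CD44-negative arrays. The groups overlapped, and the difference was 0.052 ± 0.082 (SE) with a 95% interval from -0.14 to 0.24. PARP2, which acts beside PARP1, stood at 10.06, 10.13 and 10.01 in CD44-positive arrays, against 10.04, 10.23 and 9.92 in CD44-negative arrays. Its difference was 0.0031 (interval -0.23 to 0.24), and its other 2 probe sets gave -0.017 and -0.066. PARP3, a mono-ADP-ribosyltransferase of double-strand break repair, stood at 6.11, 5.93 and 5.70 in CD44-positive arrays, against 6.05, 6.15 and 5.85 in CD44-negative arrays. That is a difference of -0.10 (interval -0.40 to 0.19) in overlapping groups. The adjusted p was 1.00 for all 3 genes by limma without the block, and between 0.853 and 0.996 with it.

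PARP4, PARP6 and PARP8 are family members outside DNA repair and the interferon response. PARP4 is a component of the vault, a large ribonucleoprotein particle. It stood at 9.50, 9.42 and 9.66 in CD44-positive arrays, against 9.58, 9.57 and 9.61 in CD44-negative arrays, a difference of -0.057 (interval -0.27 to 0.16). The CD44-negative arrays had an SD of 0.022 and lay inside the range of the CD44-positive ones. MVP, the major vault protein gene, differed by 0.022.

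PARP6, a mono-ADP-ribosyltransferase, stood at 7.91, 8.16 and 8.47 in CD44-positive arrays, against 8.14, 8.19 and 8.52 in CD44-negative arrays. CD44-positive was the lower in each of the 3 same-numbered pairs, by 0.23, 0.034 and 0.044 in size, and the mean difference was -0.10 (interval -0.48 to 0.27). The other 2 probe sets of PARP6 differed by -0.17 and -0.071, so the 3 had one sign. PARP8, among the least studied of the family, stood at 9.21, 8.84 and 9.23 in CD44-positive arrays, against 8.95, 8.70 and 9.09 in CD44-negative arrays. It was higher in 3 of 3 pairs, by 0.25, 0.14 and 0.14, yet the groups overlapped. Its difference of 0.18 had an SE of 0.14 in the unblocked fit and 0.069 in the blocked one (adjusted p = 0.614 by limma with the block). A second PARP8 probe set differed by 0.060, with pair values of 0.35, 0.087 and -0.26, and so did not keep one sign.

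PARP9 encodes a macrodomain protein with little or no transferase activity of its own that works in a complex with the ubiquitin ligase DTX3L. It stood at 6.32, 6.68 and 6.25 in CD44-positive arrays, against 6.06, 5.81 and 6.04 in CD44-negative arrays. Every CD44-positive array lay above every CD44-negative one, as in 2.82% of all genes. The difference was 0.45 ± 0.14 (SE), a fold of 1.36, with an adjusted p of 1.00 by limma without and 0.438 with the block. Pair 2 gave 0.87, against 0.26 in pair 1 and 0.21 in pair 3, and without pair 2 the blocked difference was 0.23. The second PARP9 probe set was dim, with means of 4.95 in CD44-positive and 4.66 in CD44-negative arrays, and its groups overlapped. The brighter PARP9 set carries the suffix for shared transcripts (_s_at). When suffixed sets were dropped, PARP9 was read on the dim set and differed by 0.29.

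PARP14, a large mono-ADP-ribosyltransferase with several macrodomains that acts with the transcription factor STAT6, differed most. It stood at 5.36, 6.65 and 5.64 in CD44-positive arrays, against 4.79, 5.67 and 4.90 in CD44-negative arrays. The groups overlapped, because CD44-negative array 2 lay above CD44-positive arrays 1 and 3, but within each number CD44-positive was the higher, by 0.58, 0.98 and 0.74. The CD44-negative mean, 5.119, did not clear the dim limit of 5.123, and arrays 1 and 3 of that group were well under it, so the size of the difference is approximate and no fold is given. The difference of 0.77 had an SE of 0.35 in the unblocked fit (adjusted p = 1.00, limma) and 0.090 in the blocked one (adjusted p = 0.0526, limma). As PARP14 entered the test only through its CD44-positive arrays, these p-values are given as a description and not as a call. Centring the arrays on their medians, a combination added after seeing the data, gave an adjusted p of 0.0381, leaving out pair 1 (0.0390), pair 2 (0.0211) or pair 3 (0.00908) also gave one under 0.05, and testing dim genes as well, where the filter plays no part, gave 0.0858. The unblocked difference shrank to 0.39 when CD44-positive array 2 was left out. The second PARP14 probe set was dim in all arrays, at 3.06 in CD44-positive and 3.23 in CD44-negative cells on average, and had the opposite sign in 3 of 3 pairs.

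PARP12 encodes a zinc-finger mono-ADP-ribosyltransferase known for antiviral activity. It stood at 6.55, 6.75 and 6.52 in CD44-positive arrays, against 6.23, 6.02 and 6.45 in CD44-negative arrays. These groups did not overlap either, though the gap between CD44-positive array 3 and CD44-negative array 3 was only 0.070. The other pairs differed by 0.33 and 0.73. The mean difference was 0.38 ± 0.13 (SE), a fold of 1.30, with an adjusted p of 1.00 by limma without and 0.506 with the block. Without pair 2 the blocked difference was 0.20. PARP12 has 1 probe set, which carries the suffix for shared transcripts.

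PARP10, a mono-ADP-ribosyltransferase first described as a MYC-binding protein, did not share this direction. It stood at 6.001, 5.96 and 5.99 in CD44-positive arrays, against 6.03, 6.07 and 6.05 in CD44-negative arrays. All CD44-positive arrays were the lower, as in 2.6% of genes, but by 0.066 only (interval -0.25 to 0.11). Its other 3 probe sets differed by -0.0093, 0.027 and 0.10 with overlapping groups. The PARP10 set without overlap carries the _x_at suffix, and when suffixed sets were dropped PARP10 differed by -0.0093. For single genes, an exact permutation test (two-sided) returned p = 0.1, the smallest that 3 against 3 arrays allow, for PARP9, PARP10 and PARP12, and p = 0.3 or more for the others.

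**Figure D2:**
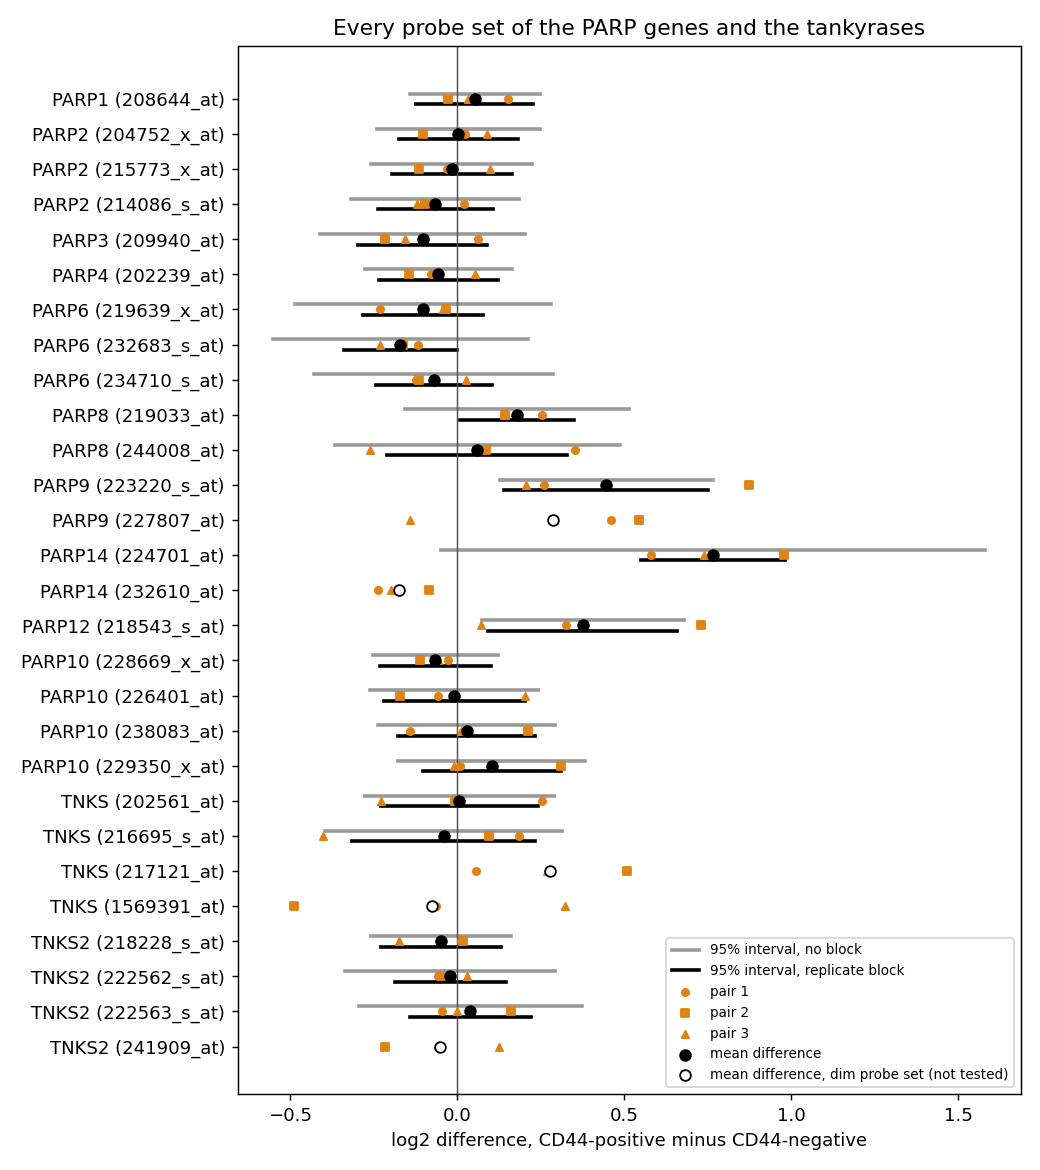
Log2 difference (CD44-positive minus CD44-negative) of each probe set of the PARP genes, TNKS and TNKS2, with 95% intervals of limma without (grey) and with (black) the replicate block, and the 3 pairs in orange. Open circles are dim probe sets that were not tested; with the block PARP14 has the interval farthest from 0, 0.55 to 0.98 in the fit over probe sets.

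The promoters of PARP9, PARP14 and PARP12 are shown because these 3 genes had the largest differences and because each holds the core of the interferon-stimulated response element, GAAA followed by any 2 bases and GAAA, searched on both strands. The motif was chosen after the differences had been seen. Of the PARP genes, 8 had a window in the RefSeq promoter table (GRCh38.p14), and these 3 were the ones with a match in the 250 bases before a start. PARP4 and PARP10 had no window, so whether their promoters hold a match was not read. Over all 35116 windows of that length 3.02% held a match, and of all 27305 genes 3.71% had a match in any window. The sequences run 5′ to 3′ on the strand of the gene and end at the base before the start, with the match in capitals. PARP9 lies on the minus strand at chr3:122564301-122564550, PARP14 on the plus strand at chr3:122680589-122680838 and PARP12 on the minus strand at chr7:140062952-140063201.
PARP9: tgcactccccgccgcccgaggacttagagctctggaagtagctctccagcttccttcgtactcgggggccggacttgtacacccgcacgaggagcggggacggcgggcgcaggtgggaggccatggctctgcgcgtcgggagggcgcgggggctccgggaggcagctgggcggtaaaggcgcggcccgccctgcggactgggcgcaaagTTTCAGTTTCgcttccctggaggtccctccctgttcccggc
PARP14: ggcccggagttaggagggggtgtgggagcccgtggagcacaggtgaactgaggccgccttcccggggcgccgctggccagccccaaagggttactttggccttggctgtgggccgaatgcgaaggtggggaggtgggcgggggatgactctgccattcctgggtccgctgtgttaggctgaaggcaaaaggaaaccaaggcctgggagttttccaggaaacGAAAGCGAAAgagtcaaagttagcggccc
PARP12: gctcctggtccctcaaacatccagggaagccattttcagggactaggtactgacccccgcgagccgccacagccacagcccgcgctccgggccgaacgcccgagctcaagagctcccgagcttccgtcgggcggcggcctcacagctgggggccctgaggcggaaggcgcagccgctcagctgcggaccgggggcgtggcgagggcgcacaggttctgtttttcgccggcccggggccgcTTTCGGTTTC
The match ends 32 bases before the start in PARP9, 20 bases before it in PARP14 and directly at it in PARP12. In PARP9 and PARP12 it reads TTTC, 2 bases, TTTC on the strand of the gene. The second PARP9 window, from another start, holds none. The PARP9 match is the same 10 bases, chr3:122564332-122564341, that span the start of DTX3L on the opposite strand, so the gene pair shares them. A match is a description of letters in a window and says nothing of whether a factor binds there. Among all tested genes with a match, 191 of 342 were higher in CD44-positive cells, with a median difference of 0.011. Those with a window but no match had 5273 of 10732 higher and a median of -0.0019. The genes with a match include PARP9, PARP12 and PARP14, after whose values the motif was chosen. These counts are therefore a description, and a link between the motif and the differences was not tested.

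DTX3L, the partner of PARP9, stood at 6.71, 7.17 and 6.36 in CD44-positive arrays, against 6.62, 5.96 and 6.36 in CD44-negative arrays. Its difference of 0.44 came almost wholly from pair 2, at 1.21, with 0.090 in pair 1 and 0.0049 in pair 3 (adjusted p = 0.735 by limma with the block). In pair 2, then, PARP9, PARP12, PARP14 and DTX3L all had their widest gap. IRF1, a transcription factor that interferon-gamma induces, did not overlap between the groups, as in 2.82% of all genes. It differed by 0.34, with pair values of 0.46, 0.16 and 0.40 (adjusted p = 0.318 by limma with the block). JAK1 of the same list did not overlap either and differed by 0.30. Of the 11 tested genes of interferon signalling and macrodomain PARP partners, 5 were higher and 6 lower, with a median of -0.0059 and none called in either fit.

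Interferon-induced genes were read as a wider frame. Of 35 genes 22 were tested, 17 of them higher and 5 lower, with a median difference of 0.11, and 13 were dim. Over all tested genes 6767 of 13842 were higher, with a median of -0.0025. None of the 22 was called without the block and CMPK2, a mitochondrial nucleotide kinase, alone with it (adjusted p = 0.0445, limma). CMPK2 too passed the filter only through its CD44-positive arrays, its CD44-negative mean being 4.83, so that call carries the same limit as PARP14, and IFIT2 likewise had a CD44-negative mean under it. It stood at 6.39, 6.58 and 5.52 in CD44-positive arrays, against 4.61, 5.32 and 4.55 in CD44-negative arrays. Those groups did not overlap, and number 2 was the highest in both sorts, as it was for PARP14. ISG15, a ubiquitin-like protein, and IFI35 did not overlap either and differed by 0.45 and 0.24. That made 3 of the 22 tested genes without overlap and higher, beside 2.82% of all genes. Most of the others were higher by less, among them IFITM3 at 0.26, BST2 at 0.26, IFIT5 at 0.22 and IFITM1 at 0.19. IFIT1 differed by 0.010, and the 5 lower genes were IFI6, SAMD9, RIGI, MX2 and IFIH1, of which IFIH1 differed most, by -0.14. MX1, OAS1 and RSAD2 were among the dim ones. So were IFI27 and GBP1, whose arrays did not overlap, with differences of -0.30 for IFI27 and 0.53 for GBP1. PARP9, PARP12 and PARP14 are not in that list.

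**Figure D3:**
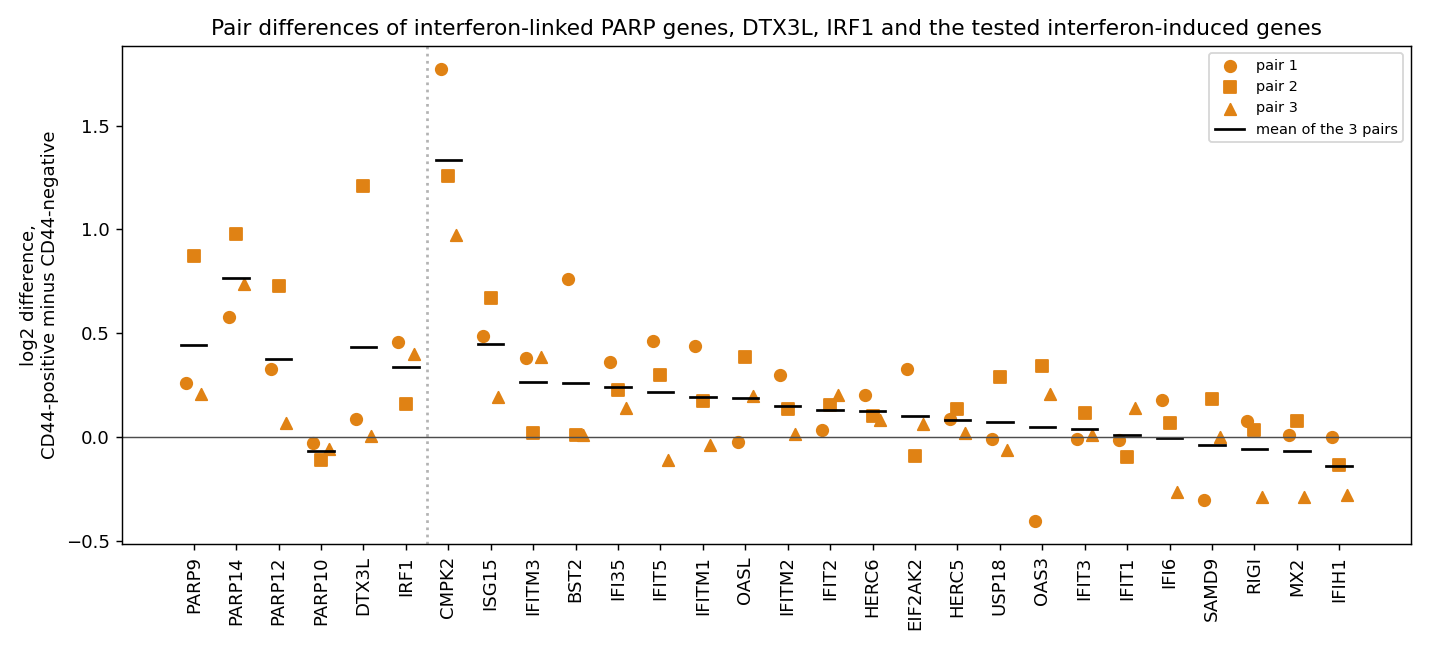
Log2 difference (CD44-positive minus CD44-negative) in the 3 same-numbered pairs (markers) and their mean (bars) for PARP9, PARP14, PARP12, PARP10, DTX3L and IRF1, and right of the dotted line for the 22 tested interferon-induced genes in order of their mean. Pair 2 is the highest of the 3 in PARP9, PARP14, PARP12 and DTX3L, while CMPK2 is highest in pair 1, at 1.78.

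Markers of other cells were read beside these genes. Mean levels per array cover every gene of a list on the platform, dim ones included, among them LUM for fibroblasts. The leukocyte list had 2 of 5 tested members higher and 3 lower, with a median of -0.081 and a mean level per array of 5.03 to 5.16 in CD44-positive and 5.09 to 5.12 in CD44-negative arrays. CD2, MS4A1, CD14, LYZ and TYROBP were dim. The fibroblast list had 5 of 8 tested members higher and 3 lower, a median of 0.18, and a mean level of 5.85 to 6.24 in CD44-positive and 5.72 to 5.74 in CD44-negative arrays. Differences of the tested fibroblast genes ran from -0.23 to 0.78. Of these genes 1 was higher and 1 lower without overlap, beside 2.82% and 2.6% of all genes. COL3A1 differed by 0.78 (adjusted p = 0.0526 by limma with the block) and FAP, PDGFRA and POSTN were dim. LUM was dim on average too, but its arrays did not overlap, at 5.63, 4.18 and 3.84 in CD44-positive cells, against 2.36, 2.79 and 2.44 in CD44-negative cells. It had the widest difference of all the marker lists. Endothelial markers had 3 of 5 higher and 2 lower, a median of 0.0085, and a mean level of 5.23 to 5.39 in CD44-positive and 5.28 to 5.30 in CD44-negative arrays. CDH5, KDR and EMCN were dim. Of the epithelial markers 2 of 6 tested were higher and 4 lower, with a median of -0.058. KRT20, an intestinal keratin, was the exception, with arrays that did not overlap, a difference of 0.63 (adjusted p = 0.298 by limma with the block) and its widest gap, 1.13, in pair 2, as in PARP9. The 3 tested neuroendocrine markers were all higher, with a median of 0.17, and ENO2, at 0.49 and dim in the CD44-negative mean, was highest in number 2 in both sorts, as PARP14 was. The part of these markers in the PARP differences was not tested, and in sorted bulk RNA fewer cells that express a gene and less RNA per cell cannot be told apart.

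In some PARP genes the range of the means of the replicate numbers was wider than the difference between the sorts. These sizes are unlike measures. By spread alone, a range over 3 means of 2 arrays tends to exceed a difference of 2 means of 3 arrays. In an F-test of the number term in the blocked limma fit, PARP14 (adjusted p = 0.00735) and PARP6 (adjusted p = 0.0384) differed between numbers, 2 of 10 genes against a background of 10.3%, so the family's share was not far from that of all genes. PARP14 averaged 5.08, 6.16 and 5.27 over the 2 sorts in numbers 1, 2 and 3, a range of 1.08, and without pair 2 it was not called (adjusted p = 0.324). PARP6 averaged 8.02, 8.18 and 8.50, a range of 0.47, and was not called without pair 3 (adjusted p = 0.367). Number 3 was the highest in both sorts in all 3 PARP6 probe sets. PARP8 averaged 9.08, 8.77 and 9.16 and lay just outside the threshold (adjusted p = 0.0512). PARP9, PARP10 and PARP12 had ranges of 0.10, 0.0029 and 0.10 between numbers, and PARP1 one of 0.024. What a shared number stands for is not stated in the labels.

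**Figure D4:**
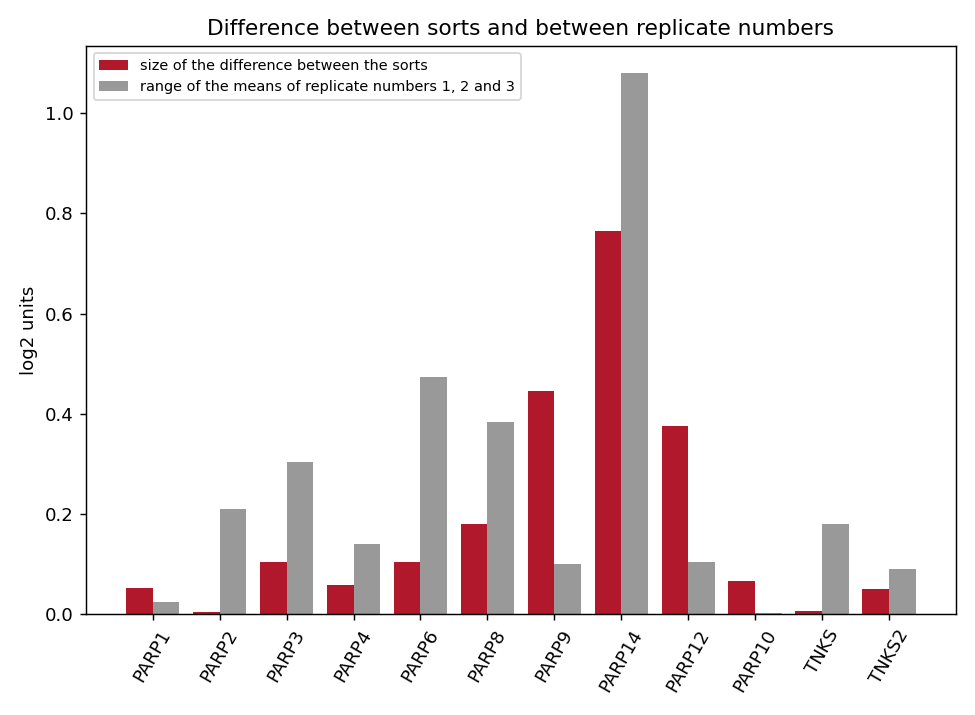
Size of the log2 difference between the sorts (red) and range of the log2 means of replicate numbers 1, 2 and 3 (grey) for each PARP gene, TNKS and TNKS2. PARP9, PARP12, PARP10 and PARP1 have the taller red bar, and PARP14 has the tallest bar of both kinds. The bars are unlike measures, a difference of 2 means of 3 arrays (red) and a range of 3 means of 2 arrays (grey).

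The tankyrases and the other enzymes of the family gave a point of comparison. TNKS differed by 0.0060 (interval -0.27 to 0.28) and TNKS2 by -0.049 (interval -0.25 to 0.15). Among the 6 tested genes of the family outside the 10, 4 were higher and 2 lower, with a median of 0.015 and none called in either fit. ZC3HAV1, a zinc-finger antiviral protein related to PARP12 and named here after its values were seen, differed by 0.21, with 0.41 and 0.39 in pairs 1 and 2 and -0.16 in pair 3. Of the 11 tested genes that remove or read ADP-ribose, 5 were higher and 6 lower, with a median of -0.011 and none called. RNF146, the ubiquitin ligase that recognises poly(ADP-ribose) on AXIN, stood at 8.41, 8.37 and 8.61 in CD44-positive arrays, against 8.33, 8.16 and 8.34 in CD44-negative arrays. Those groups did not overlap, as in 2.82% of all genes, and the difference was 0.18 (adjusted p = 0.621 by limma with the block). CHFR of the same list did not overlap either and differed by 0.16. ENPP1, a phosphodiesterase that can cleave ADP-ribose, differed by 0.29 with 0.34, 0.24 and 0.28 in the pairs (adjusted p = 0.298 with the block). The partners of PARP1 and PARP2 in single-strand break repair had 6 of 11 higher and 5 lower, with a median of 0.0059 and none called, and LIG3, the ligase of that pathway, differed by 0.11.

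The genes whose profile over the 6 arrays came closest were read for PARP14 and PARP9, the members that varied most, with an SD of 0.67 and 0.30. Closeness was the root mean square difference of the values after the gene's mean had been subtracted. For PARP14 the nearest were ERC2, a presynaptic scaffold gene, at 0.21, OXCT1, a ketone-body enzyme gene, at 0.21, and DCLK1, a kinase gene used as a tuft and stem cell marker, at 0.22. For PARP9 they were the beta-1 adrenoceptor gene ADRB1 at 0.092, PARP12 at 0.10 and EDARADD, an adaptor of the ectodysplasin receptor, at 0.11. PARP12 was thus the second nearest of all other tested genes to PARP9. ERC2 stood at 4.43, 5.53 and 4.83 in its CD44-negative arrays, a mean under the dim limit. Like PARP14, it was among the tested genes only through its CD44-positive arrays, so their likeness is a description.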

How the data were processed

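Biotin-labelled RNA of 6 samples was hybridised to Affymetrix arrays, per the labels, and groups follow the titles' CD44 status. The deposited intensity values had been made with RMA on a linear scale, per the submitters' processing notes; its version, software and genome build are not given in the sources used here. RMA brings the arrays to one distribution, and differences between dim values can come out too small. Log2 was taken with no pseudocount. Arrays correlated at 0.991 to 0.997 and had medians of 5.49 to 5.54 (log2), and their number limits the precision.

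Of the 54675 probe sets, 41091 had 1 gene symbol in the platform annotation, 1801 had several, 11721 had none and 62 were controls. Symbols were updated through the RefSeq gene table for 41037. Genes were tested with limma 3.58.1 in R 4.3.3 (lmFit, eBayes, two-sided, Benjamini-Hochberg over all 13842 genes, or over 31403 probe sets above the same dim limit). Errors are limma's SE, or the SD of 3 arrays. Tables and figures used Python 3.11.15, pandas 2.3.3, numpy 2.4.6 and matplotlib 3.10.9.

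Deviations from the group means correlated at 0.465, 0.689 and 0.626 between same-numbered arrays. Same-numbered arrays were therefore treated as pairs, which rests on the data and not on the labels. Correlations between the others ran from -0.496 to -0.107. Deviations cancel out within a sort, so these negative values are tied to the positive ones and are no separate evidence of pairing. The PARP members, gene lists and tests were chosen with earlier results of these data known. All PARP genes, TNKS, TNKS2 and CD44 were named whatever their values, and list members where they passed, or else up to 2 of a list with the largest differences among those of one sign in 3 of 3 pairs. Likeness was read for the 2 members with the largest SD. List members outside this rule, among them ZC3HAV1, ISG15, IFI35, IFITM3, BST2, IFIT5, IFITM1, IFIT1, IFIH1, NAMPT, MVP and the cell markers, were named after their values were seen. On simulated data for the 13842 genes without a block, limma recovered 43.3% of genes changed by 0.5 and 97% of those changed by 1 on the log2 scale. The simulated noise was independent between arrays, unlike the deviations of same-numbered arrays here. These shares therefore do not give the recovery in these data, where CD44, with a difference of 2.47, was not called without the block.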

Additional observations from a re-analysis of the deposited data

How the results depend on the processing

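No PARP gene was called under any setting without the replicate block, and with it PARP14 alone was, under some settings, having entered the test only through its CD44-positive arrays. Over all genes 0 were called by limma without the block (273 at an unadjusted p under 0.05), 2 with no dim filter, 1 when suffixed probe sets (_s_at, _x_at) were dropped, and 8 with the replicate block. Leaving out 1 array gave 0 to 1 without the block (1 without CD44-positive replicate 3), and leaving out 1 pair gave 10 to 127 with it (10 without pair 1, 63 without pair 2, 127 without pair 3). In each of those runs without a pair 1 PARP gene, PARP14, was called, against 0 with all pairs. Of probe sets 1 was called, then 5 with no dim filter, 0 at the 50th percentile, 3 with a variance trend and 24 with the block. Leaving out 1 array gave 0 to 7 (7 without CD44-positive replicate 3, 4 without CD44-negative replicate 2), and 1 pair 15 to 132 with the block (93 without pair 2), with 0 to 1 PARP probe sets. The F-test of the replicate number called 1430 genes and 2 PARP genes, then 745 and 1 with no dim filter, 3149 genes with a variance trend, 932 and 1 without the suffixes, and 1 PARP gene with the mean of probe sets. Without 1 pair it called 676 to 1975 genes (676 without pair 2) and 1 to 3 PARP genes. With the block, PARP14 also passed with a variance trend (adjusted p = 0.00435) and without the suffixes (0.0440), settings combined after seeing the data, but not with quantile normalization (0.0596); without the block its adjusted p lay between 0.986 and 1.00. Among the genes without overlap, counted by the exact permutation test as 3, 0 were left without the suffixes. PARP9, PARP12, PARP14, PARP8, PARP1 and PARP4 kept their sign under every setting that gave them a value, and PARP2, PARP3, PARP6 and PARP10 did not. At the 50th percentile PARP3, PARP9, PARP10 and PARP14 were dim and had no value, with the mean of probe sets PARP14 had none, and without the suffixes PARP2, PARP6 and PARP12 had none. With the mean of probe sets PARP10 differed by 0.014. Another background correction could not be run from summarised values. The cause of these shifts was not tested.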

Other observations

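NAD+, the substrate of every PARP enzyme, is made by a set of genes of which 10 were tested, 4 higher and 6 lower in CD44-positive cells, with a median difference of -0.018 on the log2 scale and none called by limma in either fit. NAMPT, the rate-limiting enzyme of NAD+ salvage, differed by -0.11. NAPRT of the same list had all CD44-positive arrays the lower, as in 2.6% of all genes, and differed by -0.14. QPRT, of the pathway from tryptophan, differed by 0.26, of which pair 1 gave 0.71 and the other pairs 0.064 and 0.0082, and NMNAT1, the nuclear enzyme of the last step, by 0.17. Of 9 tested genes of other NAD+-consuming enzymes 5 were higher and 4 lower (median 0.0050, none called). CD38, a surface NAD+ hydrolase, had every CD44-positive array below every CD44-negative one, as in 2.6% of all genes. The pairs gave 0.22, 0.058 and 0.24 in size, with a mean difference of -0.17 (adjusted p = 0.655 by limma with the block). Homologous recombination genes, whose loss makes cells sensitive to PARP1 inhibitors, had 5 of 16 higher and 11 lower, with a median of -0.027 and a range from -0.12 to 0.17, none called. CHEK2, a checkpoint kinase, differed by -0.056.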
